A study of Mus musculus with 4 samples.

Results

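The interleukin 3 receptor and the kinases and transcription factors that carry its signal were followed across 4 microarray libraries of BA/F3 cells. The 10 genes encode the receptor chains (Il3ra, Csf2rb, Csf2rb2), the 4 Janus kinases (Jak1, Jak2, Jak3, Tyk2) and 3 STAT transcription factors (Stat3, Stat5a, Stat5b). They were chosen by gene symbol: every probe set whose only symbol in the platform annotation is one of these was kept. That gave 10 of the 18193 genes named on the array, read by 20 of its 45101 probe sets, each probe set being a group of short probes that reads 1 transcript region. Of the 20, 15 had a mean log2 value of at least 4 over the libraries and entered the test, and they cover 9 of the 10 genes. The other 5 lay near the background floor and are described by their values only.

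BA/F3 is an established mouse line that needs interleukin 3 to grow and often serves to model early B cells. The titles, with the source name and genotype fields, assign 2 libraries to a TEL-AML1 inducible BA/F3 line (genotype hsa ETV6-RUNX1 +) and 2 to control BA/F3 cells (hsa ETV6-RUNX1 -). TEL-AML1, also called ETV6-RUNX1, is a human fusion transcription factor of childhood B-cell leukemia. All 4 samples, controls included, came from cells kept for 16 h with 32.5 pM mifepristone, which switches the transgene on, and total RNA was used. The series design text calls the controls of its immunoprecipitation experiment empty-vector lines; the sources used here do not state whether either line is a single clone or which promoter drives the transgene.

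The labels disagree about replicate 1. The description field names the library titled fusion replicate 1 as control and the one titled control replicate 1 as fusion-expressing, while for replicate 2 title and description match. Libraries are called below by their titles (fusion 1, fusion 2, control 1, control 2), and every comparison is given both by title and by description. The described-fusion libraries are thus control 1 and fusion 2, and the described-control libraries are fusion 1 and control 2. Nothing in the labels says that the libraries came from separate cultures, so each p-value rests only on how these 4 libraries spread, which may be technical.

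Interleukin 3 binds the alpha chain Il3ra, which then pairs with a beta chain. Mice have a shared beta chain, Csf2rb, which also serves the receptors for interleukin 5 and GM-CSF, and a second, interleukin 3 specific beta chain, Csf2rb2. The beta chain carries JAK2, which phosphorylates the receptor; STAT5 proteins dock there, are phosphorylated in turn and enter the nucleus to switch on genes for survival, growth and feedback inhibition. JAK1, JAK3 and TYK2 serve other cytokine receptors, among them those for interferons and the interleukin 2 family, and STAT3 is best known downstream of the interleukin 6 and G-CSF receptors.

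RefSeq promoter windows of GRCm38.p6, from 250 bases before to 50 after an annotated start, were present for 9 of the 10 genes, in 11 windows; Csf2rb had none in the table used. They were searched on both strands for TGTGGT, the core of the RUNX binding motif, and for the STAT motif TTCNNNGAA; these do not overlap each other in the windows. The RUNX core was found in 1 of the 11 windows, against 16.8% of all 32851 windows, and the STAT motif in 1 of the 11, against 8.30%. The 3 windows shown are those of Stat5a, the gene with the widest range over the libraries and the one RUNX match, Csf2rb2, the one STAT match, and Jak2, the gene with the smallest p-values by description, whose window has neither. Capitals mark the matches, and each window is written in the direction of transcription.
Stat5a (chr11:100859406-100859705, plus strand): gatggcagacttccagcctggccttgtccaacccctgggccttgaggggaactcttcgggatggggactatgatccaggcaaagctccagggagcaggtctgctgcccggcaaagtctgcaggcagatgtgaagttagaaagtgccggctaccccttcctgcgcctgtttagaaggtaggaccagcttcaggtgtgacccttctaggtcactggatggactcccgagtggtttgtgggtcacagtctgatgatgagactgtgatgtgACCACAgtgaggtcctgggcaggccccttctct
Csf2rb2 (chr15:78305672-78305971, minus strand): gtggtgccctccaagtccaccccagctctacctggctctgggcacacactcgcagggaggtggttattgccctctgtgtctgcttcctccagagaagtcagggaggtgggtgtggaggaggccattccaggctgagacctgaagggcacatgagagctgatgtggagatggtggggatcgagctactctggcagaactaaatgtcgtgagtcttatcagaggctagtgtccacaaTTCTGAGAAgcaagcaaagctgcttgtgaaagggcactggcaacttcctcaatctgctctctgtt
Jak2 (chr19:29251553-29251852, plus strand): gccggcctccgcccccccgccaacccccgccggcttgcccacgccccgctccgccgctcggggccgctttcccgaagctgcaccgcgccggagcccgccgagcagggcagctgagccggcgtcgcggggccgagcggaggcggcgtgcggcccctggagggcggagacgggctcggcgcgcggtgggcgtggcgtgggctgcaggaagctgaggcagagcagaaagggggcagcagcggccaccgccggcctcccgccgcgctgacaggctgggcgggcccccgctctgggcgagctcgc
In Stat5a the match lies on the strand opposite to the gene, its first printed base 18 bases into the transcript, and in Csf2rb2 the match begins 15 bases before the start. A second annotated Stat5a start has a window with neither motif. The fusion's binding was not measured in these libraries, and a match is a description of the letters only.

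By title, the receptor chains, kinases and STATs did not separate fusion from control libraries. None of the 15 tested probe sets passed an adjusted p of 0.05 (limma with Benjamini-Hochberg adjustment; adjusted p = 1 for each), against 0% of all 17720 tested probe sets, and 0 of 15 had an unadjusted p under 0.05, against 0.282%. The 2 groups overlapped at all 15, whereas 10.7% of tested probe sets had no overlap. The members' median log2 difference, fusion minus control, was -0.27 by title, beside -0.01 over all tested probe sets, with 4 higher and 11 lower. The standard errors of these differences ran from 0.20 for Csf2rb2 to 1.55 for Stat5a, and with 2 libraries a group these errors limit what the comparison can show.

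By description, all 15 tested probe sets had the higher mean in the described-fusion libraries, and again none passed the adjusted threshold. Their median log2 difference was 0.59, beside -0.01 over all tested probe sets, of which 48.4% were higher. Adjusted p-values ran from 0.19 to 0.78 (limma), with 0 of 15 called against 0.0113% of tested probe sets. At an unadjusted limma p under 0.05 there were 2 of 15, both of Jak2, against 19.7%, a share near the background for so few probe sets. At 8 of 15 probe sets the groups had no overlap, all higher in the described-fusion libraries, where 25.3% of tested probe sets were higher without overlap and 25.1% lower. The 8 were both Jak2 probe sets, 3 of Stat3, and 1 each of Jak1, Stat5b and Csf2rb. Probe sets of 1 gene, read in the same libraries, are not separate evidence.

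**Figure D1:**
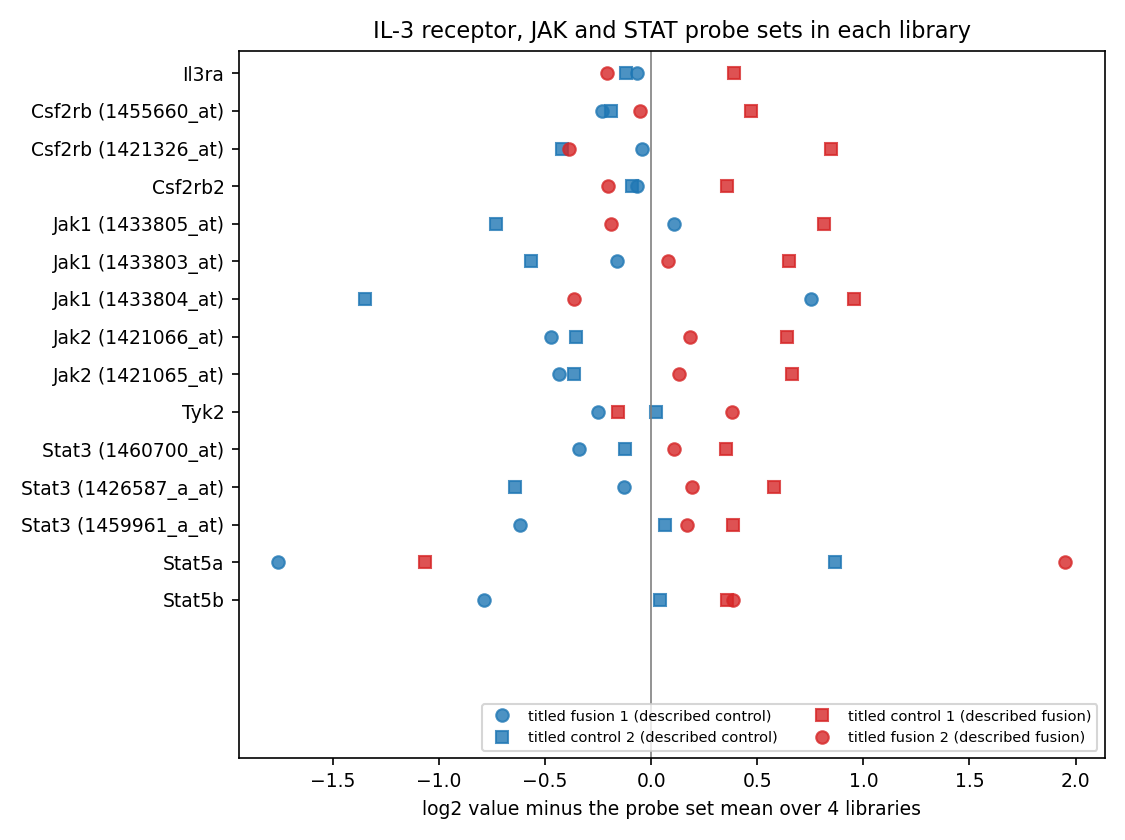
Log2 value of each tested probe set in each library, as the distance from that probe set's own mean over the 4 libraries; colours give the condition in the description field, squares libraries titled control and circles libraries titled fusion. Both Jak2 probe sets and all 3 of Stat3 have both red points to the right of both blue points, Stat5a has both replicate 2 libraries to the right of both replicate 1 libraries, and control 1 is the rightmost point in 12 of 15 rows.

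The library titled control 1 stood apart at these genes. It held the highest of the 4 values at 12 of the 15 probe sets, whereas it did so at 29.2% of all tested probe sets. Without it, 11 of the 15 were still higher by description, with a median of 0.44 beside -0.02 over all tested probe sets, and the 4 that turned were Il3ra, 1 probe set of Csf2rb, Csf2rb2 and 1 of Jak1. Without fusion 1, 14 of 15 were higher, without control 2 14 of 15, and without fusion 2 13 of 15.

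Of the receptor chains, Il3ra, the ligand-binding alpha chain, was read by 1 probe set (1419712_at). It read 6.72 in fusion 1, 7.18 in control 1, 6.67 in control 2 and 6.58 in fusion 2. Control 1 was the high library, the other 3 lay between 6.58 and 6.72, and the groups overlapped under both labels. The log2 difference was -0.27 (SE 0.30, limma adjusted p = 1) by title and 0.18 (SE 0.28, adjusted p = 0.76) by description, and the whole range over the libraries was 1.51-fold.

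Csf2rb, the beta chain shared with the interleukin 5 and GM-CSF receptors, had 2 single-gene probe sets. The probe set 1455660_at read 14.08 in fusion 1, 14.78 in control 1, 14.12 in control 2 and 14.26 in fusion 2. Both described-fusion libraries lay above both described-control libraries, but fusion 2 exceeded control 2 by only 0.14, and the difference by description was 0.42 (SE 0.20, limma adjusted p = 0.35). The other, 1421326_at, read 13.06 in fusion 1, 13.95 in control 1, 12.68 in control 2 and 12.72 in fusion 2. Here both replicate 1 libraries lay above both replicate 2 libraries, and within the replicate 2 pair the values differed by 0.03. The 2 probe sets thus agreed that control 1 was highest and placed fusion 1 differently.

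Csf2rb2, the interleukin 3 specific beta chain and a close neighbour and paralogue of Csf2rb, read 13.55 in fusion 1, 13.97 in control 1, 13.52 in control 2 and 13.41 in fusion 2 (1449360_at). It had the narrowest range among the tested members, 0.56 on the log2 scale, with control 1 again the high library. A further probe set is annotated to both beta chains (1450200_s_at) and was not counted as a member; it read 7.44 in fusion 1, 8.31 in control 1, 6.76 in control 2 and 6.34 in fusion 2. Since the 2 genes are near-identical copies, signal may be shared between their probe sets, and values of either are uncertain to that extent. In all 4 receptor-chain probe sets the difference between control 1 and the next library was larger than the difference between fusion 2 and control 2, the pair whose labels agree.

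Jak2 encodes the kinase bound to the interleukin 3 receptor beta chain. Its probe set 1421066_at read 9.71 in fusion 1, 9.82 in control 2, 10.36 in fusion 2 and 10.82 in control 1. The probe set 1421065_at read 8.78, 8.85, 9.35 and 9.88 in the same order. Both placed the libraries in 1 order, with the 2 described-control libraries close together and both described-fusion libraries above them. By description the first differed by 0.83 (SE 0.21, 1.77-fold, limma adjusted p = 0.19, unadjusted p = 0.020) and the second by 0.79 (SE 0.24, adjusted p = 0.22). By title the differences were -0.29 (SE 0.48) and -0.30 (SE 0.48). Within the replicate 2 pair fusion 2 exceeded control 2 by 0.54 and 0.49, and within the replicate 1 pair control 1 exceeded fusion 1 by 1.11 and 1.10.

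Jak1, which serves interferon, interleukin 2 and interleukin 6 family receptors, had 3 probe sets, which are not separate evidence. The probe set 1433803_at read 10.34 in fusion 1, 11.15 in control 1, 9.94 in control 2 and 10.58 in fusion 2, and its groups did not overlap by description (difference 0.73, SE 0.28, limma adjusted p = 0.28). The probe set 1433805_at read 11.78 in fusion 1, 12.49 in control 1, 10.95 in control 2 and 11.49 in fusion 2. The third, 1433804_at, read 9.77 in fusion 1, 9.98 in control 1, 7.67 in control 2 and 8.66 in fusion 2. At the last 2 both replicate 1 libraries lay above both replicate 2 libraries, by a mean of 0.92 and 1.71, while within each pair the described-fusion library was the higher. The 3 probe sets therefore shared the lowest library, control 2, and the highest, control 1, and disagreed on the order of the other two.

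The other JAKs were read less well. Tyk2, a kinase of interferon and interleukin 12 family receptors, read 7.53 in fusion 1, 7.63 in control 1, 7.80 in control 2 and 8.16 in fusion 2 at 1417306_at, with both replicate 2 libraries above both replicate 1 libraries and a range of 1.55-fold. Its difference was 0.13 (SE 0.34) by title and 0.23 (SE 0.27, limma adjusted p = 0.69) by description. The second Tyk2 probe set (1432576_at) lay between 2.52 and 2.61. Jak3, the kinase of the common gamma chain receptors, read 3.02 in 3 libraries and 3.35 in control 1 at its only single-gene probe set (1425750_a_at), below the filter. A probe set annotated to both Jak3 and its neighbour Insl3 read 6.07 in fusion 1, 7.17 in control 1, 5.88 in control 2 and 6.60 in fusion 2; it cannot be assigned to either gene, and another such probe set read 2.23 in every library.

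Stat3 was read by 3 probe sets above the filter, and all 3 separated the libraries by description. The probe set 1460700_at read 9.33 in fusion 1, 9.54 in control 2, 9.77 in fusion 2 and 10.02 in control 1. The probe set 1426587_a_at read 8.95, 8.44, 9.27 and 9.65, and 1459961_a_at read 5.64, 6.32, 6.42 and 6.64, in that same order of libraries. All 3 had control 1 highest and fusion 2 next, and they differed in which described-control library was lowest. By description the differences were 0.46 (SE 0.18), 0.77 (SE 0.28) and 0.55 (SE 0.31), with limma adjusted p-values of 0.29, 0.26 and 0.42. By title they were -0.23, 0.06 and -0.45. In the replicate 2 pair the 3 probe sets differed by 0.23, 0.83 and 0.11, so the size of the Stat3 difference depended on the probe set. The remaining Stat3 probe set (1424272_at) read 2.41 in every library.

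Stat5b, one of the 2 STAT5 proteins activated through the interleukin 3 receptor, read 7.41 in fusion 1, 8.24 in control 2, 8.56 in control 1 and 8.59 in fusion 2 (1422103_a_at). The 2 described-fusion libraries lay close together above both described-control libraries, of which fusion 1 was much the lower. The difference by description was 0.74 (SE 0.34, limma adjusted p = 0.34), and by title -0.40 (SE 0.50). Its other probe set (1422102_a_at) read 2.50 in every library.

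Stat5a, the second STAT5 gene, varied more than any other member. Its probe set 1421469_a_at read 4.16 in fusion 1, 4.85 in control 1, 6.79 in control 2 and 7.87 in fusion 2, a 13.1-fold range. Both replicate 2 libraries lay above both replicate 1 libraries, by a mean of 2.82, and the groups overlapped under both labels. By title the difference was 0.20 (SE 1.55) and by description 0.89 (SE 1.46, limma adjusted p = 0.78); within the pairs the described-fusion library was higher by 0.69 in replicate 1 and 1.08 in replicate 2. The lowest value, in fusion 1, is near the level of 4 used as the filter and above the floor of 2.23. Whether the distance to it is compressed was not tested. The other Stat5a probe set (1450259_a_at) stayed between 2.37 and 2.51, near the floor in all libraries, and so gives no second reading.

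**Figure D2:**
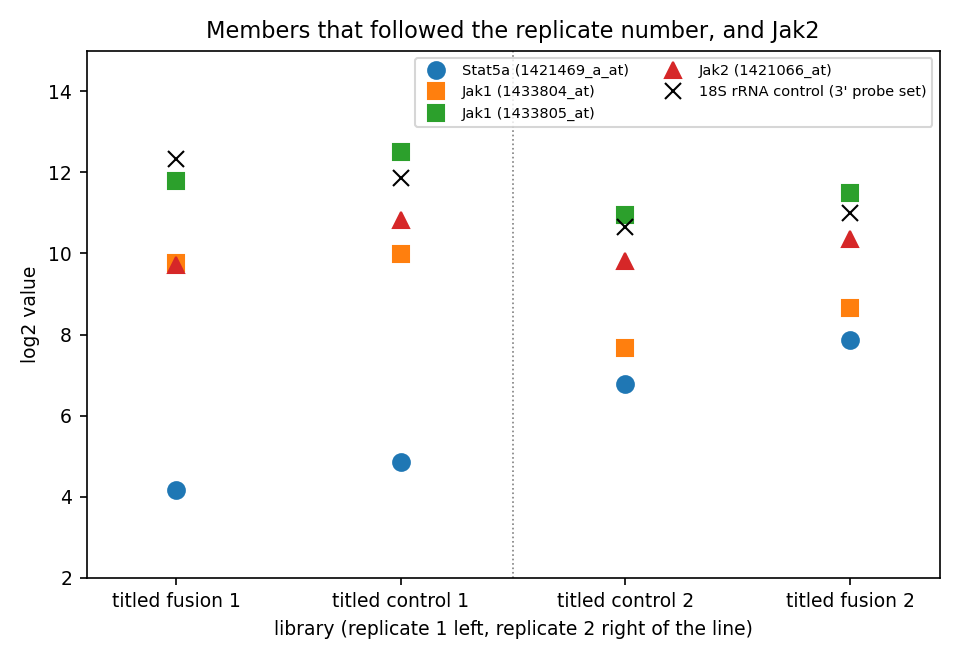
Log2 values of Stat5a, 2 Jak1 probe sets, 1 Jak2 probe set and the 3' probe set of the 18S rRNA control in each library (points; 1 library each, no error bars), with the replicate 1 libraries left of the dotted line. Stat5a was low and Jak1 and 18S rRNA were high in both replicate 1 libraries, whereas Jak2 followed the description field, with control 1 and fusion 2 above fusion 1 and control 2.

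In all, 7 of the 15 tested probe sets were ordered by replicate number. Stat5a and Tyk2 were higher in both replicate 2 libraries, 2 of 15 against 15.4% of tested probe sets. Il3ra, Csf2rb2, 1 probe set of Csf2rb and 2 of Jak1 were lower there, 5 of 15 against 18.2%. With 4 distinct values the upper 2 libraries always form 1 of 3 pairings, so the 7 here, the 8 by description and the 0 by title are 1 count divided in 3 and not separate results. The 18S rRNA control probe sets, which read ribosomal RNA carried into the labelling, were also higher in both replicate 1 libraries, by means of 1.27, 1.54 and 1.26 at the 3', 5' and middle probe sets; their part in the Stat5a and Jak1 differences was not tested.

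Values over the 4 libraries most like those of Stat5a, by the Euclidean distance between mean-centred log2 values, were found for Numa1 (distance 0.25), Agap3 (0.47) and Btk (0.51). Numa1 read 7.02 in fusion 1, 7.38 in control 1, 9.43 in control 2 and 10.44 in fusion 2. For the most variable Jak1 probe set, 1433804_at, the nearest were Plscr1 (0.17), Nktr (0.20) and Zbtb7a (0.21). With 4 libraries many genes share any 1 order, and the distances are a description.

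Set by pairs, 13 of the 15 member probe sets were higher in the described-fusion library of both replicates, against 35.7% of tested probe sets. The 2 exceptions were Il3ra and Csf2rb2, which were lower in fusion 2 than in control 2, by 0.09 and 0.11. Jak1, Jak2, Stat3 and Csf2rb each have more than 1 probe set among the 13. The count restates the comparison by description pair by pair and is not a separate result. In the replicate 2 pair, the only one for which all labels name the same condition, fusion 2 differed from control 2 by at least 2-fold at 1 member probe set. It was that of Stat5a (1.08 on the log2 scale, 2.12-fold), against 11.4% of tested probe sets. In the replicate 1 pair, the libraries differed by at least 2-fold either way at 4 member probe sets, against 13.0% of tested probe sets. These were both Jak2 probe sets, 1 of Stat3 and Stat5b, all higher in control 1. With 1 library each, these pair differences have no replicate check.

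**Figure D3:**
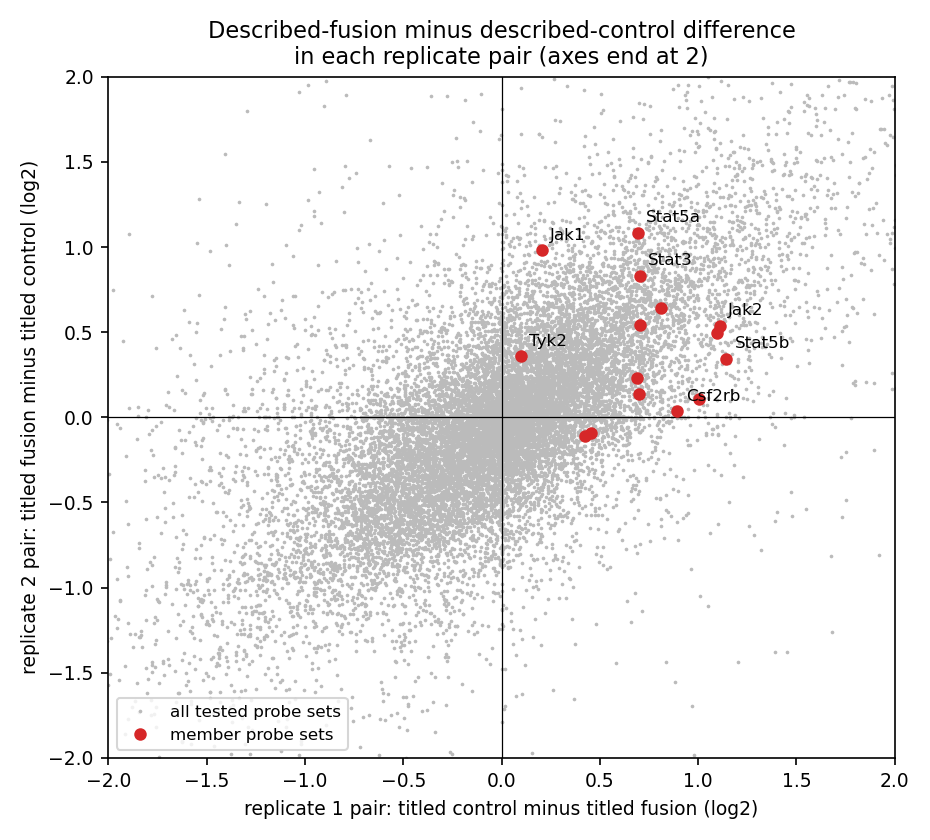
Difference between the described-fusion and the described-control library in the replicate 1 pair (horizontal, control 1 minus fusion 1) and in the replicate 2 pair (vertical, fusion 2 minus control 2), in log2 units; grey points are all tested probe sets that fall within the axes, red points the 15 member probe sets. Of the red points, 13 lie at the upper right and the other 2, Il3ra and Csf2rb2, just below the horizontal line, and most lie further along the horizontal than the vertical axis.

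The other genes of the pathway were taken from 6 lists, and none of their members passed the adjusted threshold under either label (limma). The ligands and partner alpha chains, Il3, Csf2, Il5, Csf2ra and Il5ra, all read between 2.23 and 2.24 in every library, at the floor, so that of the alpha chains that pair with Csf2rb only Il3ra was measured above background. Of the other receptor chains that use JAKs, 8 of the 20 on the array were tested. By description 7 of the 8 were higher and 1 lower, with a median of 0.49. The median over all 8892 tested genes was 0.01, and 51.5% of them were higher. At an unadjusted limma p under 0.05 there were 0 of 8, against 23.3% of tested genes. Without overlap 6 of the 8 were higher and 0 lower, where 30.3% and 25.6% of tested genes were. Ifngr2, a chain of the interferon gamma receptor, read 5.22 in fusion 1, 6.07 in control 2, 6.37 in control 1 and 7.82 in fusion 2, a difference of 1.45 (SE 0.63, limma adjusted p = 0.32). Ifnar1, a type I interferon receptor chain, differed by 0.63 (SE 0.27) and Il4ra, the interleukin 4 receptor alpha chain, by 0.85 (SE 0.37). Of the further STATs examined, Stat2, Stat4 and Stat6, the last, which serves interleukin 4, was the one with a mean of at least 4, and it differed by 0.15 (SE 0.31).

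Among adaptors and kinases that link the receptor to RAS and PI3 kinase, 14 of 22 were higher by description and 8 lower. The median was 0.16, and 1 gene, Sos1, had an unadjusted limma p under 0.05, a share below the 23.3% of all tested genes. Without overlap 11 of the 22 were higher and 1 lower, where 30.3% and 25.6% of tested genes were. Sos1, a RAS exchange factor, differed by 0.68 (SE 0.21) and Fes, a tyrosine kinase, by 0.69 (SE 0.27). Ywhaz, the 14-3-3 zeta adaptor, differed by 0.16 (SE 0.07). By title 11 of the 22 were higher and 11 lower.

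Negative regulators of the pathway went both ways by description, 11 of 20 higher and 9 lower, with a median of 0.23. At an unadjusted limma p under 0.05 there were 8 of 20, against 23.3% of tested genes. Without overlap 8 of the 20 were higher and 5 lower, where 30.3% and 25.6% of tested genes were. Socs3, a feedback inhibitor of JAK signalling, read 7.75 in fusion 1, 7.68 in control 2, 9.32 in control 1 and 9.56 in fusion 2, a difference of 1.72 (SE 0.18, limma adjusted p = 0.12). Ptpn2, a phosphatase of JAKs and STATs, read 11.45, 11.53, 12.35 and 12.26 in that order, a difference of 0.81 (SE 0.10, adjusted p = 0.13). Ptpn6, the phosphatase SHP-1, which acts on the interleukin 3 receptor beta chain and JAK2, read 10.56, 10.20, 9.47 and 9.23, a difference of -1.03 (SE 0.20, adjusted p = 0.16).

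STAT5 and STAT3 target genes were 11 of 19 higher and 8 lower by description, with a median of 0.28 and 5 of 19 at an unadjusted p under 0.05, a share near the 23.3% of all tested genes. Of the 19, 9 were higher without overlap and 4 lower, where 30.3% and 25.6% of tested genes were. Cish, Socs2 and Socs3 are also on the list of negative regulators, so the counts of these lists are not separate. Bcl6, a transcriptional repressor that STAT5 is known to repress and STAT3 to induce in several cell types, read 2.64 in fusion 1, 2.55 in control 2, 6.77 in control 1 and 7.39 in fusion 2. Its described-control values are near the floor, and it reached the filter mean of 4 only through the described-fusion libraries. It is counted among the 5 and the 9 above, so its part in those counts is no support for a difference. Myc differed by -2.55 (SE 0.33, limma adjusted p = 0.13), with the opposite sign. Of the other targets, 3 often read as measures of STAT5 activity were chosen after their values were seen. Cish read 5.35 in fusion 1, 6.05 in control 1, 6.21 in control 2 and 7.24 in fusion 2. In the same order of libraries, Pim1 read 7.05, 7.06, 10.26 and 8.55. At Cish and Pim1 both replicate 2 libraries lay above both replicate 1 libraries, as at 15.4% of tested probe sets. Their groups overlapped under either label. Socs2 read 10.66, 11.09, 10.83 and 10.95 in the same order of libraries, with both described-fusion libraries above both described-control libraries. By title the 19 targets were 9 higher and 10 lower, with a median of -0.06.

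**Figure D4:**
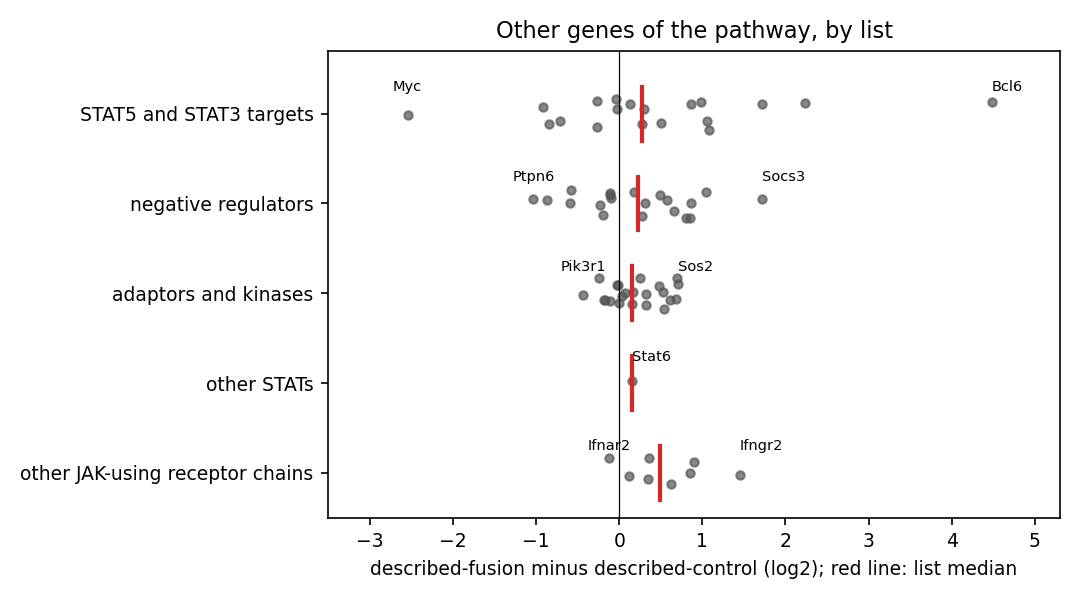
Log2 difference by description (described fusion minus described control, 2 libraries each) for each tested gene of 5 pathway lists, 1 point a gene, with the list median as a red line; the ligand list had no tested gene, and points are spread vertically for legibility only. List medians lie between 0.15 and 0.49, with Bcl6 and Myc at the far ends of the target list.

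The labelled cell type was checked against marker lists. Of 12 early B cell markers on the array only Cd79b and Ptprc read 4 or more in every library, with Cd79a doing so in fusion 2 alone, and Vpreb1, Rag1, Pax5, Ebf1 and Il7r lay at or near the floor. T cell and stromal markers were below 4 in every library, 3 of 4 erythroid and megakaryocyte markers were above it in each, and of 9 granulocyte and monocyte markers between 1 and 3 were. Of 9 mast cell and basophil markers, 6 and 5 read 4 or more in the described-fusion libraries control 1 and fusion 2, and 3 in each described-control library; the summed linear signal of that list was 14388 and 6410 against 6884 and 6350. Gata2, which read 12.44 to 13.26, made up most of that sum. Single markers of the list differed more by description: Fcer1a read 9.91 in control 1 and 7.69 in fusion 2 against 2.37 in fusion 1 and 2.32 in control 2. Hdc read 8.16 and 7.84 against 3.70 and 5.09, and Cma1 read 11.39 and 7.99 against 6.27 and 2.23, in that order. Fcer1a, Hdc and Cma1 were picked with their values in view. Of the rest of the list, Ms4a2 read 9.18 and 6.89 against 5.59 and 6.22, and Mcpt8 4.31 and 3.84 against 2.39 and 2.37. Cpa3 stayed below 4, at 3.73 and 2.55 against 2.42 and 2.42. Kit and Tpsb2 lay at the floor in every library, and Gata2 was lowest in fusion 2. The early B cell list summed to 11345 and 6415 against 8494 and 6671, so both sums were highest in control 1, as 12 of the member probe sets were. Ptprc, which read 12.55 to 13.40, made up most of the early B cell sum. The 3' minus 5' difference of the dap labelling spike was larger in the described-fusion libraries by 0.93 and 0.85 at its 2 probe set pairs, whereas that of beta-actin differed by -0.03 and that of Gapdh by 0.02. The part of these in the members' differences was not tested, and in bulk RNA fewer cells of a type and less RNA per cell cannot be told apart.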

How the data were processed

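RNA of 4 BA/F3 libraries was measured on a mouse 3' expression array after labelling with biotin. The deposited log2 values carry the authors' GCRMA 2.28.0 processing (background correction, normalization and 1 summary value for each probe set), a tool named in the submitters' processing notes. The log2 scale was read from the values, whose lowest is 2.23 in every library; no source used here states the authors' filters or test. Every library's median was 2.35, close to that floor, where differences may be compressed, which was not tested. There is no read depth on an array, and precision is limited by having 4 libraries.

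The 64 control probe sets were left out, and probe sets with a mean of at least 4 over the libraries (17720) were fitted in limma 3.58.1 under R 4.3.3 (lmFit and trended eBayes, two-sided, Benjamini-Hochberg adjustment over all tested probe sets, threshold 0.05), with 2 libraries a group and 2 residual degrees of freedom. Groups came from the titles and, separately, from the description field. The fit was checked on simulated data with independent noise. The pass condition concerned the estimated size of planted differences and not the calls. Symbols came from the platform annotation, and an update through Entrez identifiers changed 0 member names; 3 probe sets shared with another gene were not counted as members. Every member probe set is named; from each pathway list up to 3 genes with the smallest p by description are named, with further ones said to be chosen after their values were seen, and the 3 genes nearest to the 2 most variable member probe sets; list genes stand by their brightest tested probe set. Members and lists were chosen with earlier results of these data known. Alternatives were no filter, a filter of 6, no trend, quantile normalization, a floor of 4, the replicate number as a block, and each library left out in turn.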

Additional observations from a re-analysis of the deposited data

How the results depend on the processing

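No member probe set passed the adjusted threshold under any alternative run, by title or by description (limma). By title the count over all tested probe sets stayed at 0. By description it was 2, and it became 14 with quantile normalization and 0 with no filter, with a floor of 4, with the replicate block and with any 1 library left out (0 to 0); the cause was not tested. The replicate block gave members adjusted p-values of 0.0711 to 0.61 by description, lowest at Jak1, with 1 residual degree of freedom. Same-numbered libraries deviated from their title groups with a correlation of -0.20 and from their description groups with 0.59. The labels give them only a shared number, so the block was run as an alternative. The main fit by description does not model this correlation. The crossed pairing by title, added after seeing the data, called 0 probe sets. The 2-fold count in the replicate 2 pair stayed within 1.5 times of 2027 with quantile normalization and with a floor of 4.

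Of the members' alternatives, 141 by description and 146 by title kept direction and side of the threshold, and 8 and 18 reversed, all of them on leaving out a library. By title the leave-one-out log2 differences ran from -0.61 to 0.048 and from -1.06 to 0.20 for Csf2rb (1455660_at, 1421326_at), from -0.69 to 0.52, -0.76 to 1.54 and -0.85 to 0.69 for Jak1 (1433803_at, 1433804_at, 1433805_at), and from -0.81 to 0.21 and -0.78 to 0.21 for Jak2 (1421065_at, 1421066_at). They ran from -0.55 to 0.67 and -0.47 to 0.0050 for Stat3 (1426587_a_at, 1460700_at), from -1.66 to 2.05 for Stat5a, from -0.98 to 0.19 for Stat5b and from -0.18 to 0.45 for Tyk2. By description they ran from -0.15 to 1.08 for Csf2rb (1421326_at), from -0.13 to 0.44 for Csf2rb2, from -0.12 to 0.48 for Il3ra, from -0.46 to 1.64 for Jak1 (1433804_at), from -0.62 to 2.40 for Stat5a and from -0.040 to 0.50 for Tyk2.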
